A study of Mus musculus with 8 samples.

Results

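Factor inhibiting HIF (FIH, gene symbol Hif1an) hydroxylates asparagine residues, and the genes described here encode 9 proteins other than HIF that have been reported as its substrates or partners: Nfkb1, Nfkbia, Ppp1r12a, Tnks, Tnks2, Otub1, Ripk4, Ehmt1 and Ehmt2. They were taken by gene symbol from a count table of 53700 genes. All 9 were in the table, 8 passed the filter on low counts and were among the 13933 genes tested, and Ripk4 had 0 reads in every library. The cells were Lewis lung carcinoma (LLC) cells, a mouse lung carcinoma line. WT LLC cells and FIH-KO LLC cells were kept in normoxia (21% O2) or hypoxia (1% O2) for 16 hours, with no other treatment, and each of the 4 groups had 2 libraries. The FIH-KO cells were made with Cas9 and a guide against Hif1an followed by single-cell dilution. How many clones the libraries represent is not given in the sources used here, so the knockout and the history of a clone cannot be told apart. The labels do not say whether the 2 libraries of a group came from separate cultures, so the p values measure the spread between these samples only, which may be technical.

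FIH is an oxygen-dependent enzyme. On HIF-α it modifies an asparagine in the transactivation domain, which blocks the binding of a coactivator. Most of its other reported substrates carry ankyrin repeats, a common protein fold that binds other proteins, and FIH hydroxylates an asparagine in the loop of a repeat. p105 (Nfkb1) and IκBα (Nfkbia) of the NF-κB pathway, the myosin phosphatase subunit MYPT1 (Ppp1r12a), the tankyrases (Tnks, Tnks2), the kinase RIPK4 and the histone methyltransferases GLP and G9a (Ehmt1, Ehmt2) have such repeats. OTUB1 is a deubiquitinase without them. Hydroxylation takes place on the protein, and RNA-Seq measures neither it nor protein levels: the values below are the mRNA levels of the substrates.

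The libraries held between 14519731 and 18177016 counts. Hif1an itself had 84.6 and 82.3 counts per 1000000 (CPM) in WT cells and 34.8 and 37.7 in FIH-KO cells under normoxia, and 90.2 and 84.0 against 45.5 and 51.0 under hypoxia. It was lower in FIH-KO cells by a log2 fold change of -1.20 ± 0.12 (SE, adjusted p = 3.09e-05) and -0.85 ± 0.12 (adjusted p = 0.000314), both by edgeR's quasi-likelihood test with Benjamini-Hochberg adjustment over all tested genes. The hypoxia-induced gene Vegfa, a growth factor for blood vessels, rose under hypoxia by 3.08 ± 0.17 on the log2 scale in WT cells (adjusted p = 2.03e-06) and by 1.97 ± 0.16 in FIH-KO cells (adjusted p = 1.29e-05, edgeR). Egln3, a HIF prolyl hydroxylase, rose by 1.40 ± 0.18 (adjusted p = 0.000167) and 1.84 ± 0.18 (adjusted p = 5.65e-05, edgeR). Car9, a carbonic anhydrase induced by HIF, had 2 to 49 counts per library. It rose by 4.15 ± 0.58 in WT cells (adjusted p = 0.000316, edgeR), and its log2 fold change was -0.22 ± 0.72 in FIH-KO cells. The keratins Krt8 (104 to 332 CPM) and Krt18 (110.2 to 205 CPM) and vimentin (Vim, 3189 to 5442 CPM) were present in every library, while the leukocyte gene Ptprc had 0 to 3 reads, the endothelial genes Pecam1 and Cdh5 0 to 8 and 0 to 35 reads, the macrophage gene Cd68 41 to 115 reads and the alveolar gene Sftpc 0. Of these 8 genes, 5 were tested. Krt8 was higher in FIH-KO cells by 1.02 ± 0.16 on the log2 scale under normoxia (adjusted p = 0.000664) and 1.00 ± 0.16 under hypoxia (adjusted p = 0.000827, edgeR), and Vim by 0.52 ± 0.14 (adjusted p = 0.0173) and 0.58 ± 0.14 (adjusted p = 0.0103, edgeR). Krt18 fell by 0.59 ± 0.18 under hypoxia in WT cells (adjusted p = 0.0231, edgeR). Cdh5, with 2 and 1 reads in WT cells under normoxia and 35 and 18 under hypoxia, rose there by 4.01 ± 0.68 (adjusted p = 0.00102), and was lower in FIH-KO cells under hypoxia, at 5 and 3 reads, by -2.62 ± 0.57 (adjusted p = 0.00507, edgeR). Cd68 passed in no comparison. The part of these shifts in the genotype and hypoxia results on the members was not tested.

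The promoters of Nfkbia, Otub1 and Tnks2 are shown because, of the members with a listed promoter, these genes carried the clearest changes. Nfkbia and Otub1 moved in opposite directions under hypoxia, and Tnks2 was lower in FIH-KO cells. Nfkb1, also called lower in FIH-KO cells, had no listed promoter, nor had Tnks and Ripk4. Each run is the 250 bases before the start of the gene, written 5′ to 3′ along the gene, from the RefSeq promoter table (GRCm38.p6), which held 6 of the 9 members. A pair of short patterns was searched on both strands and is in capitals: the core of a hypoxia response element (HRE), ACGTG or GCGTG, and the κB consensus, the site bound by NF-κB.
Nfkbia, chr12:55492648-55492897, minus strand: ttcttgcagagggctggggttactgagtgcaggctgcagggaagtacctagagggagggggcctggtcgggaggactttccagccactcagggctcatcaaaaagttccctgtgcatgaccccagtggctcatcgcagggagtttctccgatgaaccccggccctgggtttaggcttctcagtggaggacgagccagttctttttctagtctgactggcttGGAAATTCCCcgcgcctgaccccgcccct
Otub1, chr19:7206285-7206534, minus strand: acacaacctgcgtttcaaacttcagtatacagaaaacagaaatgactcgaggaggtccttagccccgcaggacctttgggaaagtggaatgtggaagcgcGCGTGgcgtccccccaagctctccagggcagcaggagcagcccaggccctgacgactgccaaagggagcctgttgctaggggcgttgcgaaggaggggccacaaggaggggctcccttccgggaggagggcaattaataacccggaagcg
Tnks2, chr19:36833982-36834231, plus strand: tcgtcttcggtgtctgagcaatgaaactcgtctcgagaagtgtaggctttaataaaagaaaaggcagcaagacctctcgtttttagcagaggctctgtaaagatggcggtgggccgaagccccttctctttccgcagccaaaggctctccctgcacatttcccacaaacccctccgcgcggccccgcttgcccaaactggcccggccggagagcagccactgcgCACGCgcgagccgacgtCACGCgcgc
The Nfkbia window held a κB consensus match, GGAAATTCCC, 29 to 20 bases before the start, and no HRE core. The Otub1 window held 1 HRE core, 150 to 146 bases before the start. The Tnks2 window held 2, at 26 to 22 and at 9 to 5 bases. Of the other members, Ehmt1 had 1 HRE core, Ppp1r12a had 0, and each of the 2 listed Ehmt2 promoters had 4, counting the palindrome CACGTG on both strands. An HRE core was present in 38.6% of the 32851 promoters of the table and in 56.2% of the 12464 promoters of tested genes, and a κB consensus in 7.25% and 8.80%. A match describes the letters in the window and not a bound site.

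Of the 8 tested members, 3 differed between FIH-KO and WT cells under normoxia: Nfkbia was higher, and Nfkb1 and Tnks2 were lower. That is 37.5% of the members, against 28.2% of all tested genes (15.2% higher and 13% lower). Under hypoxia 2 members, again Nfkb1 and Tnks2, were lower in FIH-KO cells, which is 25.0% against 28% of all tested genes (14.1% higher and 13.9% lower). Hypoxia itself changed 4 members in WT cells: Nfkbia, Tnks and Ppp1r12a rose and Otub1 fell, 50% against 32.4% of all tested genes (16.9% higher and 15.5% lower). In FIH-KO cells it changed 2, Nfkbia upwards and Otub1 downwards, 25.0% against 16.8% (8.84% higher and 8% lower). The median log2 fold change of the 8 members was 0.13, -0.04, 0.11 and 0.13 in these 4 comparisons, and that of all tested genes -0.0025, -0.0321, -0.0011 and -0.0267. With 8 genes these shares are small counts, and the comparisons share libraries with each other.

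**Figure D1:**
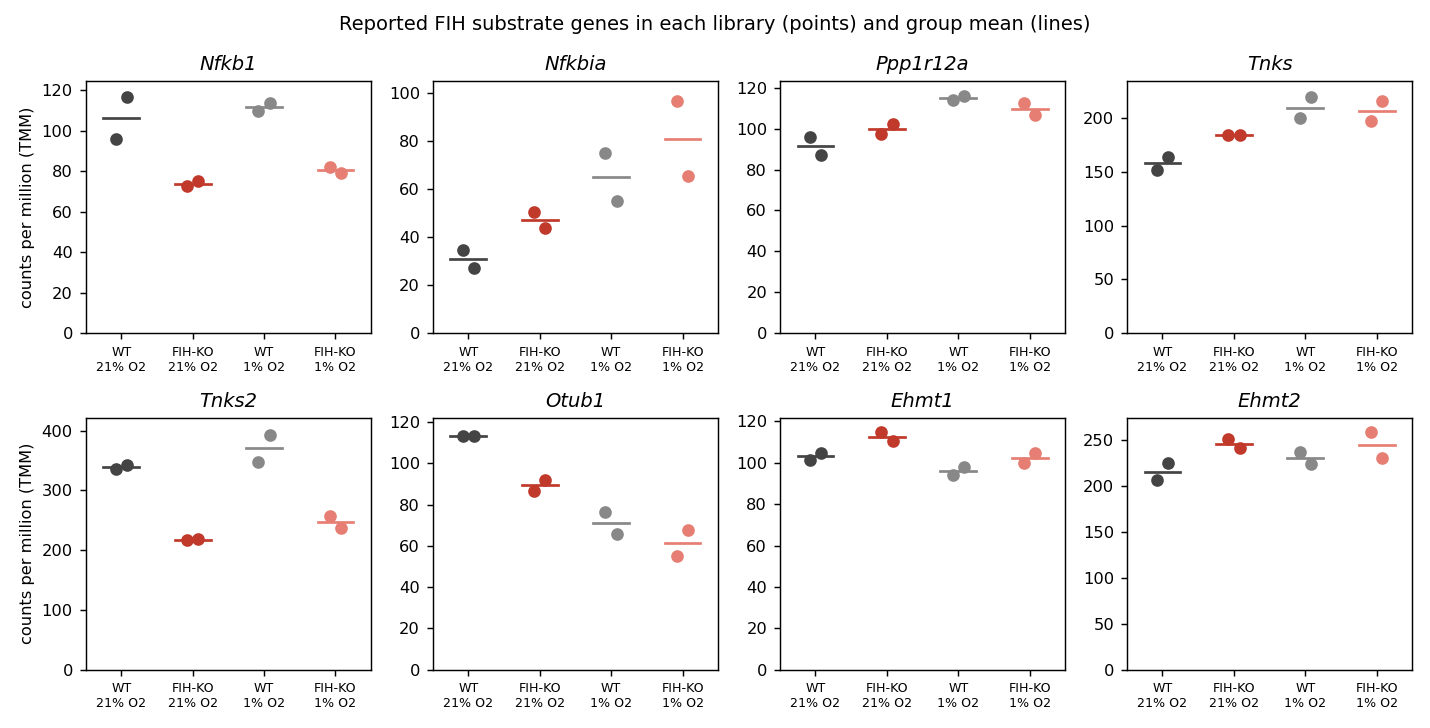
CPM of the 8 tested substrate genes in each of the 8 libraries (points) with the mean of each group (lines), on axes from 0. Nfkb1 and Tnks2 were lower in all 4 FIH-KO libraries than in all 4 WT libraries. Nfkbia, Tnks and Ppp1r12a were higher and Otub1 lower in all 4 hypoxia libraries than in all 4 normoxia libraries. The share of all tested genes that separate in these ways was not counted.

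Nfkb1 encodes p105, which is processed to the p50 subunit of NF-κB and also holds NF-κB dimers in the cytoplasm through its ankyrin repeats. The gene lies on chr3:135290264-135397742 (GRCm39, minus strand). It had 95.8 and 116 CPM in WT cells and 72.8 and 74.9 CPM in FIH-KO cells under normoxia, and 109.7 and 114 against 82.1 and 79.1 CPM under hypoxia. Every FIH-KO library was below every WT library. The share of all tested genes whose libraries separate like this was not counted, here and below. In bulk RNA, fewer cells that express a gene and less RNA per cell cannot be told apart, here and below. The log2 fold change was -0.52 ± 0.12 under normoxia (SE, adjusted p = 0.00566) and -0.47 ± 0.12 under hypoxia (adjusted p = 0.00998, edgeR). Hypoxia against normoxia gave 0.07 ± 0.12 in WT cells (adjusted p = 0.659) and 0.13 ± 0.12 in FIH-KO cells (adjusted p = 0.507, edgeR), neither past the threshold. The normoxia call did not hold without WT normoxia library 2 (-0.40, adjusted p = 0.0832), nor the hypoxia call without WT hypoxia library 1 (adjusted p = 0.0601) or 2 (adjusted p = 0.0668), by the same edgeR test. Chromosome 3 was lower as a whole in FIH-KO cells. Its 683 tested genes had a median of -0.36 on the log2 scale under normoxia and -0.41 under hypoxia, and 35.4% and 36.3% of them were called lower. Relative to those medians the log2 fold change of Nfkb1 was -0.167 and -0.0653, with 34.6% and 44.7% of the chromosome's genes below it, and its 20 nearest tested genes had medians of -0.45 and -0.31. The part of this chromosome-wide difference in the Nfkb1 result was not tested.

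Nfkbia encodes IκBα, which binds NF-κB through its ankyrin repeats and keeps it out of the nucleus, and which is itself induced by NF-κB. The gene lies on chr12:55535332-55539432 (GRCm39, minus strand) and its promoter is the first shown above. Relative to its level it had the widest range of the tested members, 27.1 to 96.4 CPM. Under normoxia it had 34.5 and 27.1 CPM in WT cells and 50.3 and 43.5 CPM in FIH-KO cells, and under hypoxia 74.7 and 54.8 against 96.4 and 65.2 CPM. All 4 hypoxia libraries were above all 4 normoxia libraries, while the genotypes overlapped under hypoxia. Hypoxia raised it by 1.08 ± 0.20 on the log2 scale in WT cells (adjusted p = 0.00204) and by 0.79 ± 0.20 in FIH-KO cells (adjusted p = 0.0189, edgeR). The WT call held with any library left out (adjusted p up to 0.0405). The FIH-KO call did not hold without FIH-KO normoxia library 1 (0.91, adjusted p = 0.0538) or 2 (0.71, adjusted p = 0.104) or FIH-KO hypoxia library 1 (0.50, adjusted p = 0.12).

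Nfkbia was higher in FIH-KO than in WT cells by 0.61 ± 0.20 under normoxia (adjusted p = 0.0424, edgeR). That call rested on every library of the comparison: it was lost without WT library 1 (0.76, adjusted p = 0.076), WT library 2 (0.42, adjusted p = 0.297), FIH-KO library 1 (0.48, adjusted p = 0.236) or FIH-KO library 2 (0.68, adjusted p = 0.067), all by edgeR. Under hypoxia the difference was 0.32 ± 0.20 and did not pass the threshold (adjusted p = 0.259), and without FIH-KO hypoxia library 2 it was 0.58 (adjusted p = 0.0442, edgeR). The median of the 503 tested genes of chromosome 12 was 0.05 and 0.02 in the 2 genotype comparisons, and the 20 genes nearest to Nfkbia had medians of -0.13 and -0.12. What part of the Nfkbia result goes with the chromosome was not tested.

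The ratio of inhibitor to subunit reads was also taken within each library, where scaling between libraries cancels. The genes differ in length (1937 exon bases for Nfkbia and 12848 for Nfkb1), so only the change of the ratio between libraries is comparable. Nfkb1 lies on chromosome 3, which was lower as a whole in FIH-KO cells, and the part of this in the ratio was not tested. The ratio of Nfkbia to Nfkb1 reads was 0.360 and 0.233 in WT and 0.691 and 0.581 in FIH-KO cells under normoxia, and 0.681 and 0.481 against 1.17 and 0.824 under hypoxia. Within each oxygen level both FIH-KO libraries had the higher ratio. The mean log2 difference was 0.96 for FIH-KO minus WT and 0.81 for hypoxia minus normoxia, with a pooled within-group SD of 0.35. An exact two-sided permutation test within the strata gave p = 0.0556 for each, the smallest p that its 36 arrangements allow, and 0.0833 after adjustment over 6 such tests, so this design cannot reach 0.05.

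**Figure D2:**
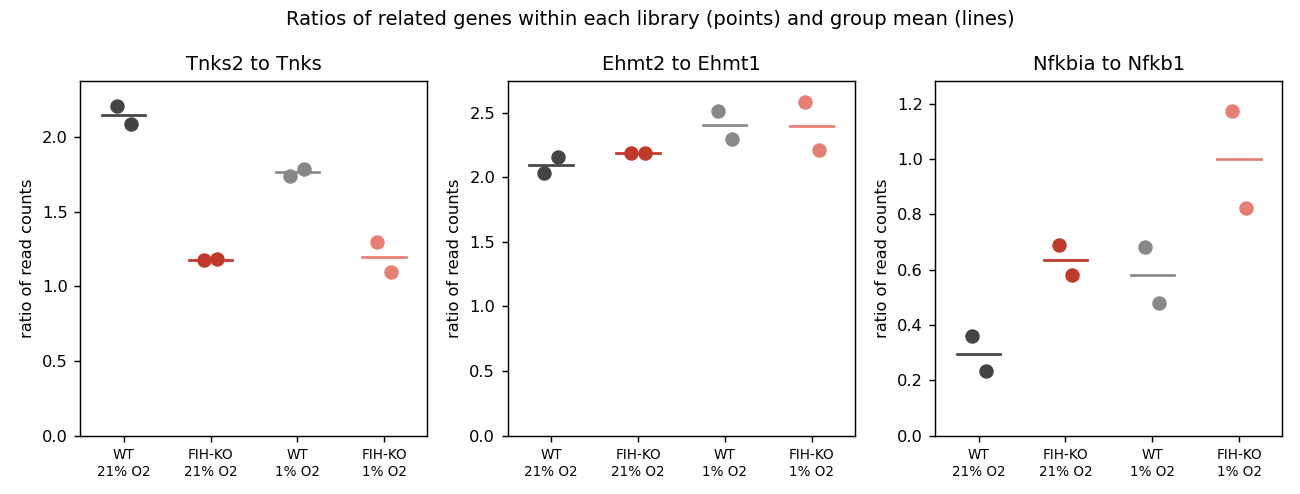
Ratio of read counts of 3 gene pairs within each library (points) with the mean of each group (lines), on axes from 0. The Tnks2 to Tnks ratio ran from 1.74 to 2.21 in the WT libraries and from 1.10 to 1.30 in the FIH-KO libraries, and the Ehmt2 to Ehmt1 ratio overlapped between genotypes.

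Other genes of the NF-κB pathway were read from 2 lists. Of 13 tested subunits, inhibitors and kinases (Nfkb1 and Nfkbia included), 7 rose and 0 fell under hypoxia in WT cells and 4 rose and 0 fell in FIH-KO cells, with medians of 0.51 and 0.31 on the log2 scale. In FIH-KO against WT cells 3 were higher and 3 lower under normoxia, and 2 higher and 5 lower under hypoxia. The shares of all tested genes to set beside this and every later list are those given for the members: 15.2% higher and 13% lower in FIH-KO cells under normoxia, 14.1% and 13.9% under hypoxia, and 16.9% higher and 15.5% lower for hypoxia in WT cells and 8.84% and 8% in FIH-KO cells. With 1 library left out, the number that rose ran from 4 (without WT normoxia library 2) to 8 in WT cells and from 1 (without FIH-KO normoxia library 1) to 5 in FIH-KO cells, and the genotype counts from 2 to 3 higher and 1 to 4 lower under normoxia and 0 to 3 higher and 2 to 6 lower under hypoxia. Nfkbiz, which encodes an atypical nuclear IκB protein, had 10.8 and 8.29 CPM in WT and 23.6 and 18.9 in FIH-KO cells under normoxia, and 33.8 and 30.5 against 47.7 and 47.8 under hypoxia. It was higher in FIH-KO cells (1.16 ± 0.17, adjusted p = 0.000543, and 0.57 ± 0.16, adjusted p = 0.0182) and rose under hypoxia (1.75 ± 0.17, adjusted p = 3.03e-05 in WT and 1.17 ± 0.16, adjusted p = 0.000611 in FIH-KO cells, edgeR). Its hypoxia genotype call did not hold without WT hypoxia library 2 (0.50, adjusted p = 0.114, edgeR). Rel, which encodes the c-Rel subunit, was lower in FIH-KO cells, at 11.5 and 7.94 against 3.04 and 4.59 CPM under normoxia and 12.4 and 13.0 against 4.31 and 6.31 CPM under hypoxia. Its log2 fold changes were -1.34 ± 0.28 (adjusted p = 0.00413) and -1.26 ± 0.27 (adjusted p = 0.00498, edgeR), and the normoxia call did not hold without WT normoxia library 1 (-1.08, adjusted p = 0.0547).

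The list of NF-κB feedback and target genes had 12 tested genes, of which 6 rose and 2 fell under hypoxia in WT cells and 5 rose and 1 fell in FIH-KO cells. In the genotype comparisons 3 were higher and 1 lower under normoxia, and 0 higher and 3 lower under hypoxia. Nfkbia is in both lists, as are Nfkb2 and Relb, so the 2 counts are not independent. With 1 library left out, 6 to 7 rose in WT cells and 1 (without FIH-KO normoxia library 1) to 6 in FIH-KO cells, 0 (without WT normoxia library 2) to 4 were higher under normoxia in FIH-KO cells, and 1 (without WT hypoxia library 1 or FIH-KO hypoxia library 2) to 3 were lower under hypoxia. No gene of this list was called in the same direction under both oxygen levels with at least 50 mean counts. Birc3, at 47.1 mean counts, was called lower in FIH-KO cells at both. It was the 1 gene called lower under normoxia, and that call was lost in some fits with a library left out. Its log2 fold changes were -1.16 ± 0.37 (adjusted p = 0.0356) and -1.15 ± 0.34 (adjusted p = 0.024, edgeR).

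Tnks and Tnks2 encode tankyrase 1 and tankyrase 2, closely related poly-ADP-ribosylating enzymes that recognise their targets through clusters of ankyrin repeats and mark proteins such as axin and TRF1. Tnks2 (chr19:36811597-36870971, GRCm39, plus strand) had 335.5 and 342 CPM in WT and 216 and 218 CPM in FIH-KO cells under normoxia, and 347 and 392.5 against 256 and 236.5 CPM under hypoxia. Every FIH-KO library was below every WT library. The log2 fold change was -0.64 ± 0.11 under normoxia (adjusted p = 0.00119) and -0.59 ± 0.11 under hypoxia (adjusted p = 0.00203, edgeR). Both calls held with any library left out and under each other setting tried (adjusted p up to 0.015 and 0.0292). For hypoxia against normoxia Tnks2 had 0.13 ± 0.11 in WT and 0.18 ± 0.11 in FIH-KO cells, neither past the threshold (adjusted p = 0.402 and 0.284, edgeR).

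Chromosome 19 was lower as a whole in FIH-KO cells. Its 476 tested genes had medians of -0.38 under normoxia and -0.45 under hypoxia on the log2 scale, and 40.3% and 43.3% of them were called lower. The log2 fold change of Tnks2 was -0.263 and -0.135 relative to those medians, with 27.5% and 38.5% of the chromosome's genes below it. Its 20 nearest tested genes had medians of -0.86 and -0.63, lower than Tnks2 itself. What part of the Tnks2 result goes with the chromosome was not tested. Hif1an, the edited gene, lies on the same chromosome. Relative to the chromosome's medians its log2 fold change was -0.825 under normoxia and -0.401 under hypoxia, with 8.61% and 18.7% of the chromosome's genes below it.

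Tnks (chr8:35293612-35432868, GRCm39, minus strand) had 152 and 164 CPM in WT and 184 and 185 CPM in FIH-KO cells under normoxia, and 199.7 and 220.0 against 197 and 216 CPM under hypoxia. All 4 hypoxia libraries were above all 4 normoxia libraries. The rise under hypoxia was 0.41 ± 0.11 in WT cells (adjusted p = 0.0125, edgeR) and 0.16 ± 0.11 in FIH-KO cells (adjusted p = 0.328). The WT call did not hold without WT normoxia library 1 (0.31, adjusted p = 0.175) or 2 (0.42, adjusted p = 0.0822), or WT hypoxia library 2 (0.33, adjusted p = 0.108). The genotype differences were 0.22 ± 0.11 (adjusted p = 0.144) and -0.02 ± 0.11 (adjusted p = 0.901, edgeR).

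The tankyrase genes thus stood in different proportions in the 2 genotypes. The ratio of Tnks2 to Tnks reads was 2.21 and 2.09 in WT and 1.18 and 1.18 in FIH-KO cells under normoxia, and 1.74 and 1.78 against 1.30 and 1.10 under hypoxia. No FIH-KO library reached the lowest WT ratio. The mean log2 difference between the genotypes was -0.71 with a pooled within-group SD of 0.09, and the exact permutation test gave its smallest possible p of 0.0556 (0.0833 after adjustment over 6 tests). For hypoxia minus normoxia the difference was -0.13 (p = 0.222, exact permutation test). These are ratios of reads, and the tankyrase genes differ in length and lie on different chromosomes, so only the change of the ratio between libraries is comparable.

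In the list of 14 tankyrases, partners and substrates, all tested, 4 genes were higher and 3 lower in FIH-KO cells under normoxia and 1 higher and 4 lower under hypoxia. With 1 library left out these counts ran from 1 (without either WT normoxia library) to 4 and from 2 to 3 under normoxia, and from 1 to 2 and from 2 to 3 under hypoxia. Parp1, the founding enzyme of the family and a sensor of DNA breaks, had 337.5 and 367 against 200.3 and 225 CPM under normoxia and 193 and 212 against 122.5 and 134.5 CPM under hypoxia. It was lower in FIH-KO cells by -0.73 ± 0.11 (adjusted p = 0.000719) and -0.66 ± 0.11 (adjusted p = 0.00145) on the log2 scale, and fell under hypoxia by 0.80 ± 0.11 in WT (adjusted p = 0.000363) and 0.73 ± 0.11 in FIH-KO cells (adjusted p = 0.00137, edgeR). Tnks1bp1, which encodes a tankyrase-binding protein, was higher in FIH-KO cells, at 194 and 216 against 320.4 and 338 CPM under normoxia and 243 and 239.7 against 379.6 and 351.5 CPM under hypoxia. Its log2 fold changes were 0.68 ± 0.11 (adjusted p = 0.000787) and 0.60 ± 0.11 (adjusted p = 0.00175, edgeR). Parp1 lies on chromosome 1, whose medians in FIH-KO against WT cells were -0.06 under normoxia and -0.12 under hypoxia. Tnks1bp1 lies on chromosome 2, whose medians were 0.23 and 0.21, with 28.7% and 28.8% of the chromosome's 1113 tested genes called higher. The part of this shift in the Tnks1bp1 result was not tested.

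**Figure D3:**
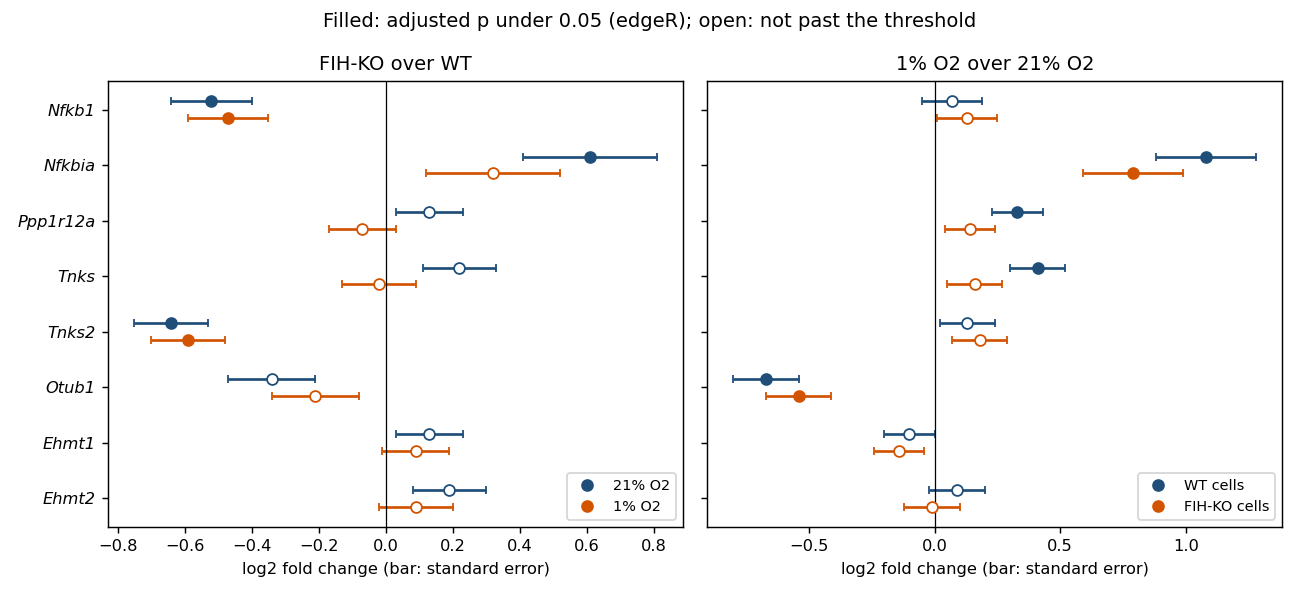
Log2 fold change (x axis) of each tested substrate gene for FIH-KO over WT (left) and for 1% over 21% O2 (right), with bars for the standard error and filled points for an adjusted p under 0.05 by edgeR. Nfkb1 and Tnks2 were called lower in FIH-KO cells at both oxygen levels, and Nfkbia higher and Otub1 lower under hypoxia in both genotypes.

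Otub1 encodes a deubiquitinase that also binds and inhibits E2 ubiquitin-conjugating enzymes. The gene lies on chr19:7172895-7183681 (GRCm39, minus strand). It had 113 and 113 CPM in WT and 86.6 and 92.2 CPM in FIH-KO cells under normoxia, and 76.3 and 65.8 against 55.2 and 67.95 CPM under hypoxia. All 4 hypoxia libraries were below all 4 normoxia libraries. Otub1 fell by 0.67 ± 0.13 on the log2 scale under hypoxia in WT cells (adjusted p = 0.00195) and by 0.54 ± 0.13 in FIH-KO cells (adjusted p = 0.0135, edgeR). The WT call held with any library left out (adjusted p up to 0.0282). The FIH-KO call did not hold without FIH-KO normoxia library 1 (-0.56, adjusted p = 0.0509) or 2 (-0.47, adjusted p = 0.0836) or FIH-KO hypoxia library 1 (-0.37, adjusted p = 0.103). Macrod1 overlaps Otub1 on the opposite strand, with 408 reads over the 8 libraries against 11027 for Otub1, and the strand setting of the counting is not given in the sources used here.

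Otub1 was lower in both FIH-KO libraries than in both WT libraries under normoxia, but its difference of -0.34 ± 0.13 did not pass the threshold (adjusted p = 0.06, edgeR). It passed with only the 4 normoxia libraries in the fit (adjusted p = 0.0227) and without FIH-KO hypoxia library 1 (adjusted p = 0.0193) or 2 (adjusted p = 0.0284). Under hypoxia the difference was -0.21 ± 0.13 (adjusted p = 0.251), and the genotypes overlapped. Otub1 shares chromosome 19 with Tnks2, and relative to the chromosome's medians given above its log2 fold change was 0.0366 under normoxia and 0.243 under hypoxia. Its 20 nearest tested genes had medians of -0.52 and -0.47.

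**Figure D4:**
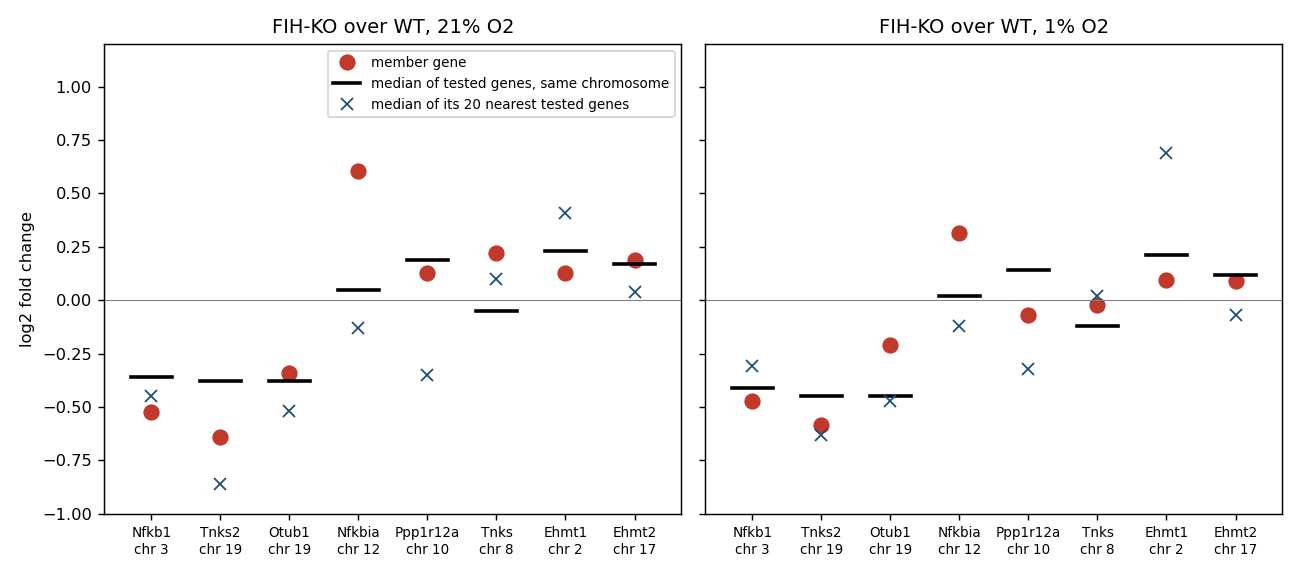
Log2 fold change of each tested substrate gene in FIH-KO over WT cells at 21% and 1% O2 (circles), with the median of the tested genes of its chromosome (bars) and of its 20 nearest tested genes (crosses). The medians of chromosomes 3 and 19, which carry Nfkb1, Tnks2 and Otub1, were -0.36 and -0.38 at 21% O2 and -0.41 and -0.45 at 1% O2.

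Of 13 tested OTUB1 relatives and E2 enzymes, 0 were higher and 4 lower in FIH-KO cells under normoxia, and 0 higher and 2 lower under hypoxia. With 1 library left out, 1 (without WT or FIH-KO normoxia library 1) to 5 were lower under normoxia and 2 to 3 under hypoxia. Ube2d3, an E2 enzyme of the family that OTUB1 binds, had 300.0 and 295.5 against 205 and 202 CPM under normoxia and 325 and 316 against 208 and 227.5 CPM under hypoxia (-0.55 ± 0.10, adjusted p = 0.00222, and -0.56 ± 0.10, adjusted p = 0.00202, edgeR). It lies on chromosome 3. Under hypoxia 1 gene of the list rose and 2 fell in WT cells, and 1 rose and 1 fell in FIH-KO cells.

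Ppp1r12a encodes MYPT1, the subunit that targets protein phosphatase 1 to myosin. The gene lies on chr10:107997640-108120336 (GRCm39, plus strand). It had 96.0 and 87.0 CPM in WT and 97.5 and 102 CPM in FIH-KO cells under normoxia, and 114 and 116 against 113 and 107 CPM under hypoxia. All 4 hypoxia libraries were above all 4 normoxia libraries. The rise was 0.33 ± 0.10 in WT cells (adjusted p = 0.0309, edgeR) and 0.14 ± 0.10 in FIH-KO cells (adjusted p = 0.417). The WT call did not hold without WT normoxia library 1 (0.36, adjusted p = 0.113) or 2 (0.22, adjusted p = 0.335), WT hypoxia library 1 (0.31, adjusted p = 0.14) or 2 (0.31, adjusted p = 0.13), or either FIH-KO normoxia library (0.29, adjusted p = 0.0566 each), nor without the filter on low counts (adjusted p = 0.0913, edgeR). The genotype differences were 0.13 ± 0.10 (adjusted p = 0.405) and -0.07 ± 0.10 (adjusted p = 0.671).

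Of 13 tested genes of the myosin phosphatase and its regulators, 4 were higher and 3 lower in FIH-KO cells under normoxia, and 1 higher and 1 lower under hypoxia. With 1 library left out, 2 (without either WT normoxia library) to 4 were higher and 1 (without either of these or FIH-KO normoxia library 1) to 3 lower under normoxia, and 1 was higher and 0 to 1 lower under hypoxia. Mylk, the myosin light chain kinase that opposes the phosphatase, had 5.40 and 9.12 CPM in WT and 79.2 and 53.4 CPM in FIH-KO cells under normoxia, and 11.1 and 9.63 against 72.3 and 57.4 CPM under hypoxia. Its log2 fold changes were 3.18 ± 0.25 (adjusted p = 7.53e-06) and 2.64 ± 0.24 (adjusted p = 2.25e-05, edgeR). Ppp1r14b, an inhibitor of the phosphatase encoded on chromosome 19, was lower in FIH-KO cells, at 181 and 166 against 84.8 and 116 CPM under normoxia and 118 and 113 against 87.1 and 77.7 CPM under hypoxia (-0.79 ± 0.14, adjusted p = 0.00161, and -0.49 ± 0.14, adjusted p = 0.0215, edgeR). Its hypoxia call did not hold without either WT normoxia library (-0.46, adjusted p = 0.0517 and 0.0516), WT hypoxia library 1 (-0.43, adjusted p = 0.143) or 2 (-0.52, adjusted p = 0.0756), or FIH-KO hypoxia library 2 (-0.41, adjusted p = 0.099). Hypoxia raised 3 genes of the list and lowered 4 in WT cells, and raised 0 and lowered 3 in FIH-KO cells, and with 1 library left out it raised 0 to 3 and lowered 1 to 4 in WT cells and raised 0 to 1 and lowered 1 to 2 in FIH-KO cells.

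Ehmt1 and Ehmt2 encode GLP and G9a, which form a complex that methylates histone H3 at lysine 9 and read the mark through their ankyrin repeats. Ehmt1 (chr2:24679940-24809696, GRCm39, minus strand) had 101.5 and 104.6 CPM in WT and 115 and 110.3 CPM in FIH-KO cells under normoxia, and 94.3 and 97.7 against 100.1 and 104.6 CPM under hypoxia. Ehmt2 (chr17:35117256-35133048, GRCm39, plus strand) had 206 and 226 against 251 and 241 CPM under normoxia, and 237 and 224 against 259 and 231 CPM under hypoxia. Neither gene passed the threshold in any comparison. The FIH-KO log2 fold changes were 0.13 ± 0.10 and 0.09 ± 0.10 for Ehmt1 (adjusted p = 0.375 and 0.532) and 0.19 ± 0.11 and 0.09 ± 0.11 for Ehmt2 (adjusted p = 0.221 and 0.588, edgeR). For hypoxia against normoxia the values were -0.10 and -0.14 for Ehmt1 and 0.09 and -0.01 for Ehmt2 in WT and FIH-KO cells (adjusted p = 0.47, 0.389, 0.544 and 0.98, edgeR). As these genes differ in length, only the change of their read ratio between libraries is comparable. The ratio of Ehmt2 to Ehmt1 reads ran from 2.03 to 2.59. It did not separate the genotypes (mean log2 difference 0.03, exact permutation p = 0.611) and was higher in every hypoxia than in every normoxia library (0.16 with a pooled SD of 0.10, exact permutation p = 0.0556, the smallest this design allows).

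Of the 14 tested genes of histone H3 lysine 9 methylation, 1 was higher and 6 lower in FIH-KO cells under normoxia, and 0 higher and 4 lower under hypoxia. With 1 library left out, 3 (without WT normoxia library 2) to 7 were lower under normoxia and 3 to 4 under hypoxia. Setdb1, another methyltransferase of this residue, on chromosome 3, had 109 and 104.7 against 65.9 and 72.3 CPM under normoxia and 132.5 and 141 against 82.4 and 82.2 CPM under hypoxia. Its log2 fold changes were -0.63 ± 0.10 (adjusted p = 0.00109) and -0.73 ± 0.10 (adjusted p = 0.000464, edgeR). Cdyl, a chromodomain corepressor that reads the mark, had 11.4 and 12.8 against 3.87 and 4.25 CPM under normoxia and 13.1 and 15.6 against 6.81 and 4.23 CPM under hypoxia (-1.57 ± 0.25, adjusted p = 0.000741, and -1.37 ± 0.24, adjusted p = 0.00149, edgeR). Cbx1, which encodes the heterochromatin protein HP1β, had 55.4 and 54.4 against 34.3 and 38.9 CPM and 63.0 and 70.1 against 43.7 and 45.2 CPM (-0.59 ± 0.12, adjusted p = 0.00391, and -0.58 ± 0.12, adjusted p = 0.00393, edgeR). Hypoxia raised 2 genes of the list and lowered 3 in WT cells, and raised 1 and lowered 1 in FIH-KO cells.

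Ripk4 (chr16:97543133-97564987, GRCm39, minus strand), a kinase of epidermal differentiation, had 0 reads in each of the 8 libraries, of 131118070 counts in all. A count of 0 allows up to 3 counts, which is between 0.165 and 0.207 CPM per library, counting error only. Of the 5 RIP kinase genes listed, 2 were tested: 0 were called in FIH-KO against WT cells at either oxygen level, 1 rose and 0 fell under hypoxia in WT cells, and 0 were called in FIH-KO cells.

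Scaled to length, as reads per kilobase of exon and per 1000000 counts (RPKM, exons of GENCODE for GRCm39) and averaged over the 8 libraries, the members ranked Ehmt2 (40.7), Nfkbia (28.8), Tnks2 (27.8), Otub1 (15.3), Tnks (12.7), Ehmt1 (9.84), Ppp1r12a (9.61) and Nfkb1 (7.25). Over single libraries Ehmt2 ran from 35.8 to 45.0, Nfkbia from 14.0 to 49.8 and Tnks2 from 20.5 to 37.3, so the order of these 3 was not the same in every library. Tnks stood above Otub1 under hypoxia, at a mean of 14.1 against 12.9 in WT and 13.8 against 11.2 in FIH-KO cells, although in WT hypoxia library 1 Otub1 was the higher (13.9 against 13.4). The levels of Ehmt1 (8.97 to 10.9), Ppp1r12a (8.04 to 10.7) and Nfkb1 (5.66 to 9.06) overlapped as well. Hif1an, at 5.61, was below each of the 8 on this scale.

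No member's response to FIH-KO differed between the oxygen levels by the test of that difference. The adjusted p values of this test ran from 0.801 to 0.978 in edgeR, 0 of the 8 members had an unadjusted p under 0.05, and 0 of all tested genes (0%) passed in edgeR, with 925 at an unadjusted p under 0.05 and 40 by DESeq2. The largest difference in size was that of Nfkbia, -0.29 ± 0.28 on the log2 scale. A response called at 1 oxygen level and not at the other, as for Nfkbia, was therefore not shown to differ.

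Across the 8 libraries the log2 CPM of Nfkb1 and Tnks2 moved together (Pearson r = 0.96), and those of Nfkbia and Otub1 in opposite directions (r = -0.92). Tnks and Ppp1r12a had r = 0.82. These 8 points share their group structure, so the values describe the pattern only. The tested genes whose pattern was most like that of Tnks2 were Sh3bgrl2 (r = 0.994), Psg17 (r = 0.994, 14.1 mean counts) and Tpd52 (r = 0.992). For Nfkb1 they were Kbtbd6 (r = 0.983, 11.3 mean counts), Pi4k2a (r = 0.981) and Arnt (r = 0.981), which encodes the HIF-1β subunit and lies on chromosome 3 like Nfkb1. Tpd52 also lies on chromosome 3, and Pi4k2a on chromosome 19. Each of these 6 genes was lower in FIH-KO cells by its fitted log2 fold change at both oxygen levels. That direction follows from choosing them by their likeness to Nfkb1 or Tnks2.

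A further 6 genes described here have been reported as FIH substrates, and 4 of them were tested: 0 were higher and 2 lower in FIH-KO cells under normoxia, and 0 higher and 1 lower under hypoxia. Under hypoxia 1 of them rose and 0 fell in each genotype. Otud7b, the deubiquitinase Cezanne, on chromosome 3, was lower in FIH-KO cells by -0.32 ± 0.11 under normoxia (adjusted p = 0.041) and -0.51 ± 0.11 under hypoxia (adjusted p = 0.00421, edgeR). It had 119.7 and 121.5 against 101.5 and 91.3 CPM under normoxia, and 142 and 146 against 95.6 and 106.5 CPM under hypoxia. Trp53bp2, which encodes the p53-binding protein ASPP2, was lower under normoxia (-0.37 ± 0.13, adjusted p = 0.0443), with -0.25 ± 0.13 under hypoxia (adjusted p = 0.162, edgeR). Both normoxia calls were lost under DESeq2 (adjusted p = 0.0513 for Otud7b and 0.061 for Trp53bp2). Otud7b lost its normoxia call without any 1 of the 4 normoxia libraries or WT hypoxia library 2 (adjusted p up to 0.159), and Trp53bp2 without either WT normoxia library, FIH-KO normoxia library 1 or WT hypoxia library 2 (adjusted p up to 0.226, edgeR). Hace1, a ubiquitin ligase, rose under hypoxia by 0.55 ± 0.14 in WT (adjusted p = 0.0114) and 0.49 ± 0.14 in FIH-KO cells (adjusted p = 0.0324, edgeR). The WT call was lost without either WT normoxia library or WT hypoxia library 2 (adjusted p up to 0.146), and the FIH-KO call without any 1 of the 4 normoxia libraries or FIH-KO hypoxia library 1 (adjusted p up to 0.11). Ankfy1, an endosomal protein, did not pass in any comparison (log2 fold changes from -0.12 to 0.08). Trpv3 had 0 to 11 and Asb4 0 to 2 reads per library and were not tested.

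Ankyrin-repeat genes were also taken by symbol (Ankrd, Ankhd, Asb and Ank genes), 69 in all and 42 tested. In FIH-KO cells 8 were higher and 10 lower under normoxia, and 6 higher and 10 lower under hypoxia, with medians of 0.0003 and 0.12 on the log2 scale. Hypoxia raised 9 and lowered 6 in WT cells, and raised 4 and lowered 3 in FIH-KO cells. These counts moved with single libraries: with 1 left out, those higher under normoxia ran from 1 (without WT normoxia library 2) to 8 and those lower from 4 (without WT normoxia library 1) to 13, those under hypoxia from 3 (without either WT hypoxia library or FIH-KO hypoxia library 2) to 7 and from 5 (without WT hypoxia library 1) to 10, and hypoxia raised 3 to 9 and lowered 2 to 11 in WT cells and raised 1 to 4 and lowered 0 to 5 in FIH-KO cells. Ank2, a membrane-skeleton adaptor on chromosome 3, had 80 and 91 reads in WT and 6 and 1 in FIH-KO cells under normoxia, and 243 and 191 against 7 and 1 under hypoxia (-4.65 ± 0.52, adjusted p = 8.12e-05, and -5.67 ± 0.48, adjusted p = 1.50e-05, edgeR). The size of its change rests on few reads: it was -6.39 without FIH-KO normoxia library 1 and -3.88 without library 2, and under hypoxia -7.48 without FIH-KO hypoxia library 1 and -4.90 without library 2. Ankrd13c, also on chromosome 3, was lower by -0.62 ± 0.11 (adjusted p = 0.00139) and -0.51 ± 0.11 (adjusted p = 0.00448), from 92.5 and 92.4 to 59.7 and 60.2 CPM under normoxia and from 80.4 and 86.3 to 55.5 and 61.3 CPM under hypoxia. Ankrd13d, on chromosome 19, went against its chromosome and was higher, by 0.77 ± 0.24 (adjusted p = 0.0284) and 0.75 ± 0.24 (adjusted p = 0.035, edgeR), at 7.07 and 6.16 against 11.1 and 11.5 CPM under normoxia and 4.71 and 7.65 against 10.2 and 10.3 CPM under hypoxia. Its normoxia call was lost without any 1 of the 4 normoxia libraries (adjusted p 0.0987 to 0.189) and its hypoxia call without WT hypoxia library 1 (0.46, adjusted p = 0.222) or either FIH-KO hypoxia library (adjusted p = 0.0537 and 0.0732), and its hypoxia fold change was 1.13 without WT hypoxia library 2.

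The position of the lower genes was counted over all lists. Chromosomes 3 and 19 were picked because earlier results of these data had shown them lower as sets in FIH-KO cells. The counts therefore describe positions and test nothing. Both members called lower in FIH-KO cells, Nfkb1 and Tnks2, lie on chromosomes 3 and 19, as do 3 of the 8 tested members (37.5%). Of the 115 tested genes of the related lists that are not members, 17 lie on these 2 chromosomes, and they made up 10 of the 29 called lower under normoxia (34.5%) and 11 of the 26 called lower under hypoxia (42.3%). Over all tested genes chromosomes 3 and 19 held 8.32% of the genes and 23.9% and 23.5% of those called lower. In the hypoxia comparisons the medians of these 2 chromosomes lay between -0.07 and 0.00. Other chromosomes were shifted as well. In FIH-KO against WT cells chromosome 13 (Cdyl) had medians of -0.18 under normoxia and -0.16 under hypoxia. Chromosome 9 (Birc3 and Sh3bgrl2) had -0.17 and -0.16. Some other chromosomes were shifted upwards in FIH-KO cells. Under normoxia and hypoxia the medians were 0.23 and 0.21 on chromosome 2, which carries Ehmt1 and Tnks1bp1. They were 0.23 and 0.18 on chromosome 16 (Mylk and Nfkbiz), 0.19 and 0.14 on chromosome 10 (Ppp1r12a), and 0.17 and 0.12 on chromosome 17 (Ehmt2). The part of these shifts in the results on those genes was not tested.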

How the data were processed

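The deposited values are raw read counts per gene. To make them, the authors used bcl2fastq for demultiplexing, STAR for alignment to GRCm39 and HTSeq for counting. Libraries came from a stranded mRNA kit. The annotation release and the strand setting are not given in the sources used here, and the submitters' processing notes also name GRCm38.

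Counts were analysed with edgeR 4.0.16 in R 4.3.3: filterByExpr by group, TMM factors (0.983 to 1.02), and quasi-likelihood tests in 1 fit of all 8 libraries with 4 group means. P values were adjusted by Benjamini-Hochberg over the 13933 tested genes, with a threshold of 0.05. The common biological coefficient of variation was 11.7%. CPM values use the TMM-scaled totals. RPKM values divide by the exons of GENCODE (GRCm39), which held 52610 of the 53700 identifiers. Within-library ratios were tested with an exact permutation test within strata. The scripts were checked on simulated counts.

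The members, the related lists and the tests were chosen with earlier results of these data known. Named genes were all members, the further reported substrates, Hif1an, 3 hypoxia and 8 cell type genes, for Nfkb1 and Tnks2 the 3 genes of most similar pattern, and from each list up to 3 genes called in the same direction in both genotype comparisons with at least 50 mean counts, ranked by the smaller absolute log2 fold change. Nfkb1 and Tnks2 were also named by that last part, and Birc3, below its count, was named in addition. The neighbour medians were added to the planned chromosome medians. An item of the list of further reported substrates is not reported here and was left out of its counts. A planned search of the member proteins for a sequence pattern around asparagines was not run, as no protein sequences were used here. Alternatives were DESeq2 1.42.0, RLE and upper-quartile factors, looser and stricter count filters, only the 4 libraries of a comparison, the replicate number as a term, and each library left out in turn. Tables and plots used Python 3.11.15, pandas 2.3.3, scipy 1.17.1 and matplotlib 3.10.9.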

Additional observations from a re-analysis of the deposited data

Results flagged for a closer look

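Ppp1r12a was flagged because its libraries moved in opposite directions with FIH-KO at the 2 oxygen levels. Both FIH-KO libraries were above both WT libraries under normoxia (97.5 and 102 against 96.0 and 87.0 CPM), and both were below them under hypoxia (113 and 107 against 114 and 116 CPM). The difference between the 2 log2 fold changes was -0.19 ± 0.15 (SE). The test of that difference did not pass the threshold (adjusted p = 0.826, edgeR), and neither genotype comparison passed on its own. The share of all tested genes whose libraries show the same pattern was not counted.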

How the results depend on the processing

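With 2 libraries a group, most calls on members depended on single libraries. Among them were both genotype calls of Nfkb1 (adjusted p = 0.00566 and 0.00998 in the main edgeR fit). The Tnks2 genotype calls and the WT hypoxia calls of Nfkbia and Otub1 held with any library left out. With each library left out in turn, the number of members called ran from 1 to 4 for FIH-KO against WT in normoxia, 1 to 3 in hypoxia, 2 to 4 for hypoxia in WT cells, 0 to 2 for hypoxia in FIH-KO cells, and 0 to 0 for the difference of effects. With only the 4 libraries of the comparison, 1 member was called for hypoxia in FIH-KO cells (Otub1 at -0.51, adjusted p = 0.0612, no longer passed), and the calls over all genes fell from 2345 to 1289. In the other settings the number of members called stayed within 1.5 times the main one. Of the counts of higher and lower genes in the related lists, 158 moved by over 1.5 times with a library left out and 418 did not, and 42 moved and 462 did not under the other settings. Values close to 0 changed sign, and so did the difference of effects of Nfkbia, which was -0.29 in the main fit. For Tnks, FIH-KO in hypoxia, the log2 fold change was 0.0164 without a filter and 0.00624 with 4 libraries, and for Ehmt2, hypoxia in FIH-KO cells, 0.0231 with at least 10 counts in every library and 0.0226 with 4 libraries. With libraries left out, the ranges that crossed 0 were -0.0843 to 0.0825 (Tnks, FIH-KO in hypoxia), -0.0124 to 0.0945 (Ankfy1, FIH-KO in normoxia), -0.10 to 0.18 (Nfkb1), -0.0128 to 0.13 (Ehmt2) and -0.0263 to 0.11 (Hif1an) for hypoxia in WT cells, and -0.0638 to 0.0684 (Ehmt2) for hypoxia in FIH-KO cells. For the difference of effects they were -0.0375 to 0.25 (Nfkb1), -0.53 to 0.0107 (Nfkbia), -0.0226 to 0.34 (Otub1), -0.0639 to 0.0627 (Ehmt1) and -0.14 to 0.0273 (Ehmt2), and for the Ehmt2 to Ehmt1 ratio between genotypes -0.0288 to 0.0843. The cause was not tested. The labels give replicates of different groups a shared number and do not say whether they were paired. The correlations of their deviations between groups ran from -0.0104 to 0.193. Fitted with the replicate block, the number of members called was 3, 2, 4, 2 and 0 in the 5 comparisons, the same as without it, and the calls over all genes went from 3933 to 4080 and from 3896 to 4039 in the genotype comparisons. Over all genes, the difference of effects had 0 calls in the main edgeR fit, 40 by DESeq2, 143 without a filter, 5 with the replicate block and 0 to 39 with a library left out. With a library left out, the genotype calls over all genes fell to as few as 1735 in normoxia and 2170 in hypoxia, and the hypoxia calls to 2124 in WT and 1097 in FIH-KO cells.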
